A study of Caenorhabditis elegans with 4 samples.

Results

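ELT-3 peaks on chromosome V of Caenorhabditis elegans were taken as all lines of the combined peak list that name this chromosome, which gave 872 of 5338 peaks. The list comes from chromatin immunoprecipitation and sequencing (ChIP-seq) of fed L1 hermaphrodites, the first larval stage, grown at 20 °C. The series holds 4 libraries, with 2 ChIP libraries made with an affinity-purified goat antibody against GFP and 2 input libraries of unprecipitated DNA. All 4 came from strain OP75, which carries the mutation unc-119 (ed3) on chromosome III and the transgene wgIs75, made by bombardment. The transgene holds elt-3 fused to the tags TY1, EGFP and FLAG beside a functional unc-119 (+) copy, and no change of the native elt-3 gene is listed. Worms were cross-linked with 2% formaldehyde, and the lysis protocol refers to embryos, which differs from the larval stage given for all 4 libraries. No library lacked the tagged protein, so binding was measured against input DNA alone, and all positions are in WormBase WS180 coordinates. For each peak the authors deposited its bounds and a q-value, meaning a p-value corrected for the number of places tested, without values for single libraries. The read depth is therefore unknown, no spread between replicates can be given, and the intervals below describe counts of peaks or the spread over stretches of the genome within 1 list.

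ELT-3 is a zinc finger protein of the GATA family made in the hypodermis, the epithelium that secretes the worm's cuticle. Factors of this family bind short sites with a GATA core and, in the worm, act in cascades that set up the epidermis and the intestine. Chromosome V is the longest worm chromosome and is known for large families of chemoreceptor genes. Worm autosomes have a central part with few crossovers and arms with many crossovers and more repeats, and none has a localized centromere. No gene annotation of build WS180 was used, so peaks were not assigned to genes, peak density was not set against gene density, and no peak sequence is shown.

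Peaks were spread more thinly over chromosome V than over the rest of the genome, and the difference was greatest towards its right end. The last peak of V ended at 20899483, and this position stood in for the chromosome's length. Over that span V held 41.7 peaks per Mb (exact 95% Poisson interval 39.0 to 44.6), against 56.3 per Mb (54.7 to 58.0) on the other 5 chromosomes together. Of the single chromosomes X came nearest, with 47.2 per Mb (44.0 to 50.5), an interval that overlaps that of V. The values on I to IV ran from 55.6 per Mb on IV to 63.1 per Mb on I. V thus held 16.3% of the peaks on 20.9% of the summed length. Its peaks covered 516.8 kb or 2.47% of the chromosome, against 3.15% of the others. In complete 1 Mb windows V averaged 42.2 ± 20.4 peaks (SD over 20 windows) and the other chromosomes 56.4 ± 18.2 (SD over 77 windows). A quasi-Poisson model of these window counts gave a ratio of 0.749 (95% interval 0.617 to 0.908, p = 0.00376, n = 97 windows). With the windows of the right arm of V left out, a choice made after the values were seen, the ratio was 0.871 (0.710 to 1.07, quasi-Poisson p = 0.181, n = 91 windows). Neighbouring windows were alike (Pearson's r = 0.71 between successive windows of V, over 19 pairs, as a description). On I to IV the coefficient ran from 0.48 on III to 0.69 on II, and on X it was 0.19. The model treats windows as independent, so its intervals and p-values do not allow for this likeness.

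To see where along the chromosome the peaks lay, V was divided into a left arm, a centre and a right arm of 6.97 Mb each, with bounds at 6.97 and 13.93 Mb. The left arm held 264 peaks (30.3%), the centre 418 (47.9%, exact binomial 95% interval 44.6% to 51.3%) and the right arm 190 (21.8%). As densities these were 37.9 per Mb (33.5 to 42.8) in the left arm, 60.0 per Mb (54.4 to 66.0) in the centre and 27.3 per Mb (23.5 to 31.4) in the right arm, with exact Poisson intervals. The right arm had 0.720 times as many peaks as the left arm (exact interval 0.594 to 0.871). A low ratio was not particular to V, since it was 0.677 on IV (0.569 to 0.803). It was 0.985 on I, 1.18 on III, 1.39 on X and 1.77 on II. The right arm of V was the thinnest of the 18 parts obtained when all 6 chromosomes were divided in this way. The next thinnest were the left arm of II with 34.4 per Mb, the left arm of X with 37.5 per Mb and the left arm of V itself.

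**Figure D1:**
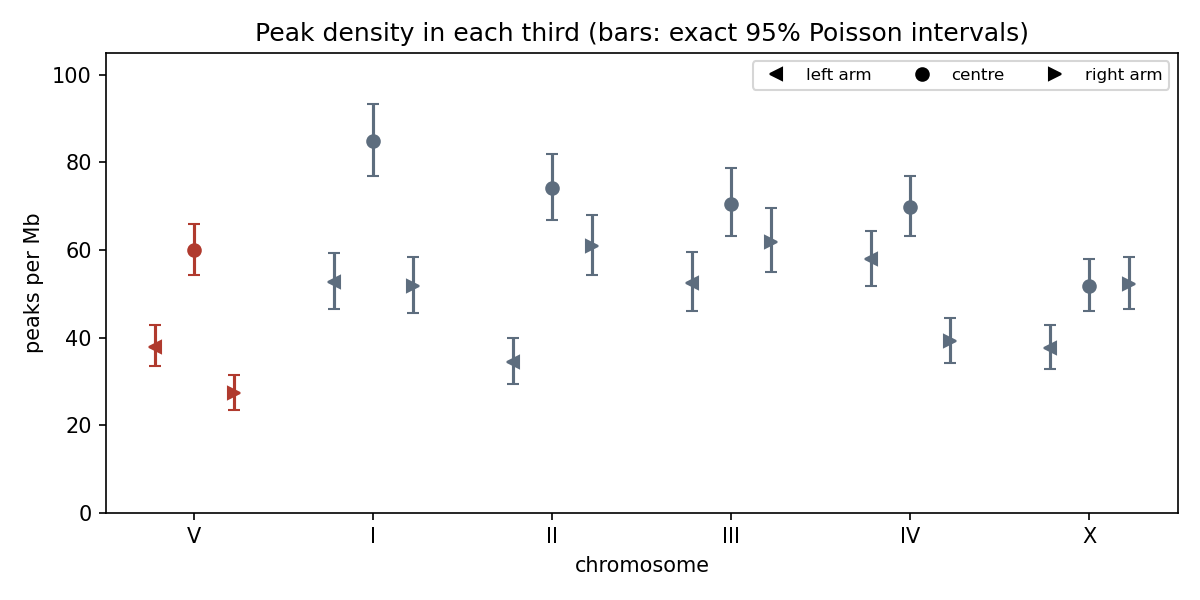
Peaks per Mb (vertical axis) in the left arm, centre and right arm of each chromosome (horizontal axis), V in red; points are densities and bars exact 95% Poisson intervals. The right arm of V, at 27.3 per Mb, is the lowest point, and the centre of V, at 60.0 per Mb, lies below the centres of I to IV.

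Each part was then set against the same part of chromosomes I to IV. The right arm of V averaged 26.2 ± 9.70 peaks per window (SD over 6 windows), against 52.5 ± 14.8 in the right arms of I to IV (SD over 19 windows). The ranges overlapped, from 13 to 40 peaks on V and from 22 to 80 on I to IV. A single quasi-Poisson model of all 80 autosomal windows gave a ratio of 0.499 for the right arm (0.323 to 0.771, a 95% interval with Bonferroni adjustment over the 3 parts). The left arm averaged 38.1 ± 17.5 peaks on V (SD over 7 windows), against 49.4 ± 15.4 on I to IV (SD over 21 windows), a ratio of 0.772 (adjusted interval 0.545 to 1.09). The centre averaged 60.0 ± 16.9 on V (SD over 7 windows), against 75.7 ± 14.4 on I to IV (SD over 20 windows), a ratio of 0.793 (adjusted interval 0.599 to 1.05). The interval of the right arm thus lay below 1, and those of the other 2 parts included 1, although their ratios were also below 1. With 6 or 7 windows of V in each part the intervals rest on few values and on the model, and no p-value is given. This model too treats windows as independent, so the intervals do not allow for the likeness of neighbouring windows.

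The central share of V, 47.9%, exceeded the 42.2% of I to IV by 5.73 percentage points (Newcombe 95% interval 2.05 to 9.41). This interval counts peaks as independent. In the window model, where the spread between windows enters, the centre of V held 1.84 times as many peaks per window as its arms, against 1.49 times on I to IV. The ratio of these ratios was 1.24 (95% interval 0.896 to 1.71), so a stronger central excess on V than on the other autosomes was not shown. Among the strongest 25% of the list the ratio of ratios was 1.54 (95% interval 1.02 to 2.32), and the central share of V was 57.2%.

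Followed in steps of 5% of the length, density on V did not rise and fall evenly. It was 24.9 and 26.8 peaks per Mb in the first 2 steps and reached 64.1 per Mb at 30% to 35% of the length. It then dropped to 42.1 per Mb at 35% to 40%, before the highest value of 89.0 per Mb at 55% to 60%. Beyond that point it fell in each successive step to 10.5 per Mb at 80% to 85%, the lowest value, and the last 2 steps stood at 29.7 and 26.8 per Mb. V lay below all of I to IV in 12 of the 20 steps and above all of them in 1, the step of its highest value. Of the last 7 steps, from 65% of the length on, V was below all of I to IV in 6.

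**Figure D2:**
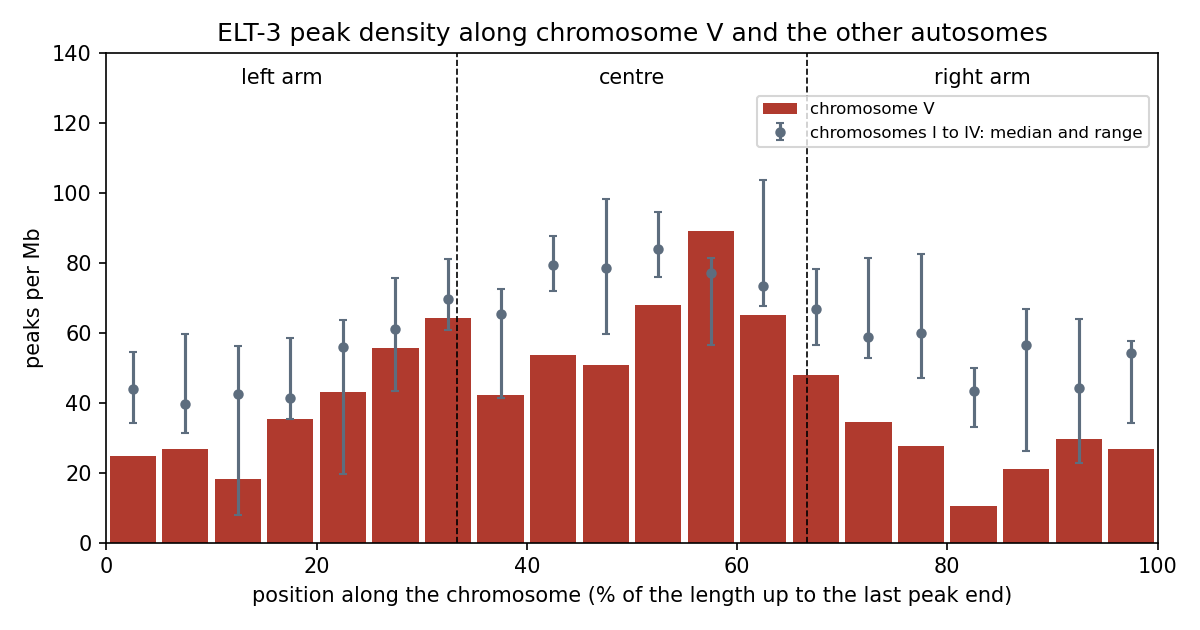
Peaks per Mb (vertical axis) in 20 equal steps along the chromosome (horizontal axis, percent of the length up to the last peak end); red bars are V, grey points and bars the median and range of I to IV. V peaks at 89.0 per Mb just right of the middle and falls to 10.5 per Mb at 80% to 85%.

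Sparse windows were defined as complete 1 Mb windows with under 50% of the median over all 97 complete windows (52 peaks), and full windows as those with over 150%. V had 5 sparse windows of 20, against 3 of 77 on the other chromosomes (1 each on II, IV and X). The emptiest windows of V ran from 17 to 18 Mb with 13 peaks, from 18 to 19 Mb with 18 and from 2 to 3 Mb with 21. The other 2 sparse windows, from 0 to 1 Mb and from 19 to 20 Mb, held 25 peaks each, just under the bound of 26, and the window from 1 to 2 Mb held 27, just above it. On II, the windows from 1 to 2 Mb and from 2 to 3 Mb held 26 peaks each, exactly at the bound, and did not count as sparse. None of the 5 sparse windows of V lay in the centre. Windows of 100 kb were more often empty on V, with no peak in 25 of 208 (12.02%), against 38 of 789 elsewhere (4.82%). Of these 25 empty windows, 14 lay in the right arm, 9 in the left arm and 2 in the centre.

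V had 1 full window of 20, against 9 of 77 on the other chromosomes together. The counts were small, and X had 0 of 17 and III 1 of 13, while I and II had 3 of 15 each and IV 2 of 17. The full window was 11 to 12 Mb with 90 peaks, which covered 51.8 kb. Next came 6 to 7 Mb, at the inner end of the left arm, with 72 peaks and 45.7 kb covered, and 10 to 11 Mb with 67 peaks and 41.3 kb covered. The 3 fullest windows together held 229 peaks, which is 26.3% of the peaks of V on 14.4% of its length. Relative to their mean, counts varied widely from window to window on V. The variance was 9.83 times the mean, compared with 3.07 times on X and 7.74 times on II, the highest of the others. The SD itself, 20.4 peaks on V, was close to those on I (20.5), II (20.9) and IV (19.3), whose means were higher. It was 13.9 on III and 11.9 on X.

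The crowding at the inner end of the left arm was local. Between 6.2 and 6.6 Mb lay 47 peaks, 17.8% of the left arm's peaks on 5.74% of its length, and they covered 33.2 kb. The 100 kb windows from 6.2 to 6.3 Mb and from 6.5 to 6.6 Mb held 17 and 16 peaks and were the fullest of the chromosome, whose mean was 4.17 per 100 kb. Of the 47 peaks, 34 had another midpoint within 2 kb. The bound between left arm and centre falls farther right, between a peak that ended at 6901060 and one that began at 6982079. When the middle 40% was taken as the centre instead, it held 57.6% of the peaks of V, but a wider part holds more peaks by construction.

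The stretches without peaks were long on V. Its longest, at 17246901 to 17714349, measured 467.4 kb and was the longest between any neighbouring peaks of the list. The others among the 5 longest of V lay at 19666653 to 20000009 (333.4 kb), 2910039 to 3193023 (283.0 kb), 16966023 to 17246516 (280.5 kb) and 8662891 to 8922708 (259.8 kb). The first and the fourth adjoin. Over 748.3 kb of the right arm, from 16966023 to 17714349, a single peak was called, at 17246517 to 17246900 (384 bp, q-value 6.24e-08). V held 5 of the 10 longest such stretches of the list, 8 of the longest 20 and 18 of the longest 50. Beside these counts, V made up 20.9% of the summed length and held 16.3% of all peaks. In all, 34 stretches on V exceeded 100 kb and summed to 5779 kb of its 20.9 Mb. The other 5 chromosomes together had 77, which summed to 11387 kb. Of these, 27 lay on X and summed to 3950 kb of its 17.7 Mb. The remaining 50 lay on I to IV and summed to 7436 kb of 61.6 Mb. Long stretches were thus also frequent on X. The stretch at 8.66 to 8.92 Mb was the only one of the 5 in the centre, and the longest in the centre of I to IV measured 115.7 kb, on III.

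The median distance between neighbours on V differed less from the rest than the mean distance did. The median distance from one midpoint to the next was 8.73 kb on V (order-statistic 95% interval 7.31 to 10.5 kb), against 7.76 kb (7.22 to 8.28 kb) on the other chromosomes. These intervals overlap. Taken apart, the median was 7.35 kb on I to IV (6.77 to 7.94 kb) and 9.73 kb on X (8.50 to 11.6 kb). The mean distance was 24.0 kb on V and 17.7 kb elsewhere, and the upper quartile 30.8 kb on V and 22.5 kb elsewhere. The distributions thus differed at long distances, and V also had fewer neighbours within 2 kb than I to IV, as given below. Within V the median distance was 10.2 kb in the left arm (7.87 to 13.8 kb), 6.59 kb in the centre (5.12 to 8.03 kb) and 14.6 kb in the right arm (9.07 to 22.9 kb). In the centres of I to IV it was 6.65 kb (6.10 to 7.50 kb), close to the value in the centre of V.

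**Figure D3:**
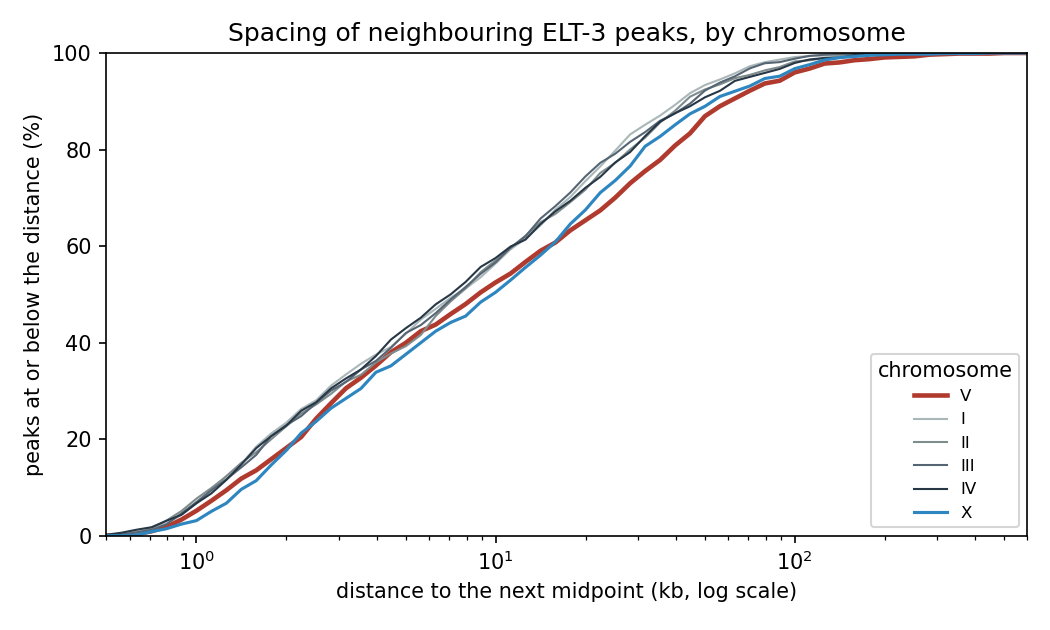
Share of peaks (vertical axis, percent) whose next midpoint lies at or below a given distance (horizontal axis, kb, log scale), for each chromosome; V is the thick red line. The curves are close at a few kb, and V is the lowest curve from 20 kb to 100 kb.

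Neighbours within 2 kb were less frequent on V than on I to IV, and about as frequent as on X. Another midpoint lay within 2 kb of 31.4% of the peaks on V (exact binomial 95% interval 28.4% to 34.6%), against 39.1% on I to IV (37.5% to 40.7%) and 31.5% on X (28.4% to 34.8%). The share on V changed little from part to part, with 29.2% in the left arm, 33.0% in the centre and 31.1% in the right arm, and the intervals of all 3 overlap. Runs of 3 or more peaks, each within 2 kb of the next, numbered 33 on V and held 12.4% of its peaks, against 16.7% on I to IV and 9.95% on X. The longest run of V, of 5 peaks, lay at 6319270 to 6324453 in the left arm, within the crowded stretch described above. Its strongest member was the fourth, at 6322869 to 6324162 (1294 bp, q-value 7.75e-28), and its weakest the second, at 6320344 to 6320751 (408 bp, q-value 0.00799). Another 7 runs had 4 peaks, 3 of them in the left arm, 3 in the centre and 1 in the right arm.

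Although peaks were thin on V, peaks of the strongest 10% were not rarer among them. V held 94 of the 534 peaks that make up the strongest 10% of the list by q-value, or 17.6% (exact binomial 95% interval 14.5% to 21.1%), beside its 16.3% of all peaks. Put the other way, 10.8% of the peaks of V (8.80% to 13.03%) and 9.85% of those on the other chromosomes (8.99% to 10.8%) belonged to the strongest 10%. The median q-value was weaker on V, at 1.63e-05, than elsewhere, at 6.91e-06, and the intervals of the median negative log10 q-value overlapped (4.50 to 5.27 on V, 5.01 to 5.32 elsewhere). Per Mb, the strongest 10% gave 4.50 peaks on V and 5.55 elsewhere, a ratio of 0.810, compared with 0.740 for all peaks. At other bounds, V held 19.1% of the strongest 5% (14.6% to 24.3%) and 15.5% of the strongest 50% (14.2% to 17.0%), with density ratios of 0.895 and 0.698. A q-value below 1e-05 was reached by 48.3% of the peaks of V and 51.7% of those elsewhere.

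The central share of strong peaks on V depended on where the strength bound was set. Of the 94 in the strongest 10%, 57 lay in the centre (60.6%, exact interval 50.02% to 70.6%), 21 in the left arm and 16 in the right arm. On I to IV the central share of the strongest 10% was 50.4% (45.1% to 55.8%), and the intervals overlap. In the strongest 5% the order was the other way, with 25 of 51 peaks of V in the centre (49.0%, 34.8% to 63.4%), against 100 of 177 on I to IV (56.5%, 48.9% to 63.9%), and these intervals overlap too. The part from 50% to 60% of the length alone held 25 of the 94, beside 164 of all 872 peaks of V. The last 20% of the length held 5 of the 94 and 92 of all peaks, and the first 20% held 10 and 110. Of the peaks lying in each part, 13.6% in the centre belonged to the strongest 10% (10.5% to 17.3%), 7.95% in the left arm (4.99% to 11.9%) and 8.42% in the right arm (4.89% to 13.3%).

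**Figure D4:**
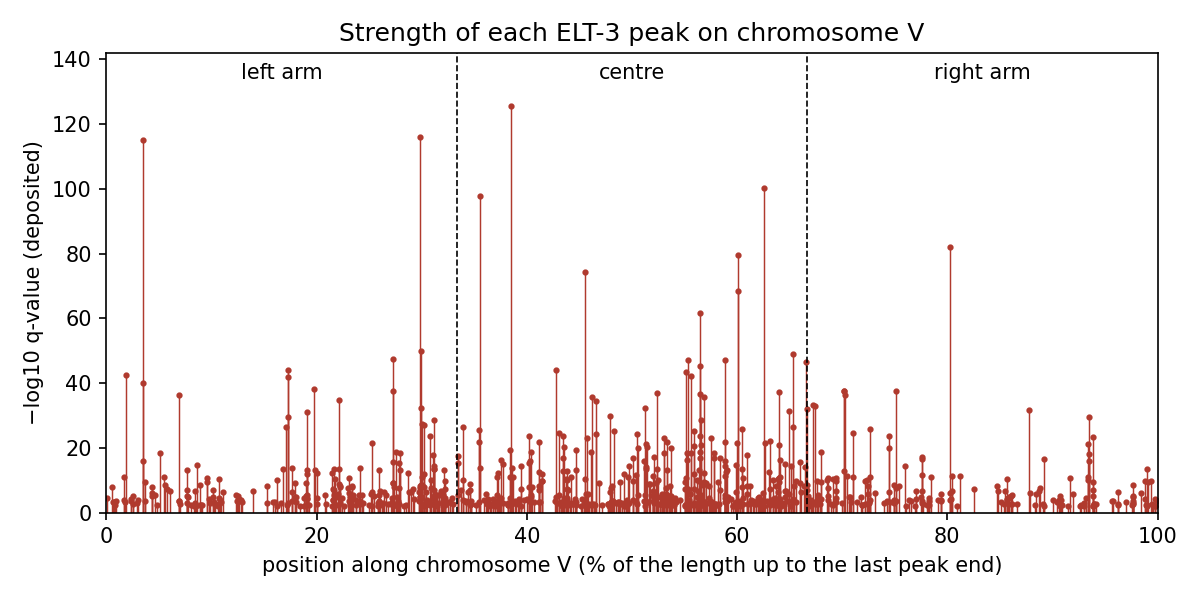
Each of the 872 peaks of V as a line and point, by position (horizontal axis, percent of the length up to the last peak end) and strength (vertical axis, negative log10 of the deposited q-value). The highest values are scattered, with 7 of the 10 strongest in the centre, 2 in the left arm and 1 in the right arm.

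The strongest place on V was a peak of 2812 bp at 8038970 to 8041781 in the centre (q-value 2.42e-126, rank 10 of the list). It stood alone, with the nearest other midpoint 12.7 kb away, the largest such distance among the 10 strongest peaks of V. The peaks ranked 2 and 3 on V were both in the left arm. That at 6222213 to 6230407 was also the widest of the chromosome (8195 bp, q-value 8.52e-117) and lay in the crowded stretch from 6.2 to 6.6 Mb. That at 723679 to 728495 (4817 bp, q-value 7.03e-116) lay near the left end, after 87.6 kb without a peak, and was followed within 228 bp by another strong peak of 2036 bp with a q-value of 1.22e-40.

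Strength and width did not always go together among these peaks. The peak ranked 4 on V, at 13081001 to 13081803, was only 803 bp wide with a q-value of 6.52e-101, while the peak ranked 5, at 7433910 to 7437781, measured 3872 bp with a q-value of 1.48e-98. Rank 8, at 9516137 to 9519261, measured 3125 bp (q-value 5.67e-75). Rank 10 was the narrowest of the 10, with 593 bp at 11802336 to 11802928 (q-value 2.89e-62). In all, 7 of the 10 were wider than 2000 bp and 3 were narrower than 1 kb. Across the 872 peaks Spearman's coefficient between width and strength was 0.58, given as a description, since both values come from the same reads. The 94 strongest had a median width of 852.5 bp and the other 778 a median of 408.5 bp.

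The strongest peak of the right arm, ranked 6 on V, lay at 16778400 to 16782114 (3715 bp, q-value 7.07e-83). The next strongest of the right arm were far weaker, at 14660491 to 14661113 (623 bp, q-value 3.18e-38), and then at 14655672 to 14657399 (1728 bp, q-value 3.50e-38), and lay close together near the bound with the centre. The third of the left arm, at 6247248 to 6248098 (851 bp, q-value 1.16e-50), belonged to the crowded stretch there.

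A pair of the 10 strongest peaks lay in the same short stretch of the centre. Ranks 7 and 9, at 12554024 to 12554841 (818 bp, q-value 2.26e-80), and then at 12555755 to 12557844 (2090 bp, q-value 3.14e-69), formed a run with 2 weak narrow peaks. One of these, of 216 bp with a q-value of 0.00196, lay between them, and the other, of 210 bp with a q-value of 0.00290, followed. Of the 10 strongest peaks, 6 had another peak edge within 500 bp, so the number of peaks counted at such places depends on how the caller split neighbouring regions.

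The stretch of up to 20 kb with the most peaks on V lay at 11787192 to 11804003 in the centre, with 9 peaks that covered 6.42 kb of 16.8 kb. The most in 20 kb was likewise 9 on III and X, and 10 on I, 11 on II and 14 on IV. Its 3 strongest peaks stood next to each other. Besides rank 10 of V they lay at 11800415 to 11801886 (1472 bp, q-value 4.76e-46), and then at 11798326 to 11799838 (1513 bp, q-value 1.72e-37). The weakest of the 9 was the first, with 351 bp and a q-value of 0.000245.

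Median width on V was close to that of the other autosomes. The median was 426 bp (order-statistic 95% interval 414 to 452 bp), against 409 bp on I to IV (401 to 416 bp), with the 2 intervals just overlapping, and 503.5 bp on X (480 to 531 bp). Within V it was 425.5 bp in the left arm (402 to 464 bp), 444.5 bp in the centre (416 to 478 bp) and 408.5 bp in the right arm (380 to 438 bp). In the centres of I to IV the median was 401 bp (390 to 415 bp), just below the interval of the centre of V. Peaks of similar strength were also compared. In the strongest 25% of the list the median was 645.5 bp on V (601 to 741 bp), against 599 bp on I to IV (572 to 628 bp), and in the weakest 25% it was 312 bp on V (295 to 333 bp), against 298 bp on I to IV (288 to 309 bp). The intervals overlap in both classes.

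Peaks wider than 2000 bp numbered 29 of 872 on V, against 71 of 3632 on I to IV and 23 of 834 on X. Within V they were 16 of 418 in the centre, 7 of 264 in the left arm and 6 of 190 in the right arm. The 5 widest were ranks 2, 3 and 5 of V together with those at 8934906 to 8940191 (5286 bp, q-value 8.47e-45), and then at 14684685 to 14688863 (4179 bp, q-value 4.33e-37). At the other extreme, 14 of the 872 peaks of V were narrower than 50 bp, against 67 of 4466 on the other chromosomes. Of these 14, 8 lay in the right arm, 4 in the centre and 2 in the left arm. The first peak of V lay at 8116 to 9337 (q-value 2.27e-05) and the last, whose end stood in for the chromosome's length, at 20899125 to 20899483 (q-value 0.000198).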

How the data were processed

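Per the file headers, the authors deposited positions in the WormBase WS180 build, and the source field of the list is PeakSeq, which scores regions of ChIP reads relative to input. The q-value (an adjusted p-value) of each peak is the authors' own. Whether replicates were pooled, and the aligner, versions and filters, are not given in the sources used here. The 4 libraries (2 ChIP, 2 input) have no values of their own in the list.

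Width was end minus start plus 1, and a peak was placed by its midpoint. The last peak end stood in for chromosome length. Equal parts, 1 Mb and 100 kb windows, spacing and ranks by q-value were computed in Python 3.11.15 with pandas 2.3.3 and SciPy 1.17.1. Counts in complete 1 Mb windows were modelled by quasi-Poisson regression in statsmodels 0.14.6, which was tested on simulated data. The simulated windows were independent of each other, so that test does not cover the likeness of neighbouring windows seen on V and on I to IV. For the 3 parts of V, Benjamini-Hochberg adjusted p-values were planned, but V has under 10 windows in each part, so Bonferroni-adjusted intervals, chosen after seeing the data, are given in their place, and 95% intervals for the central excess. Other comparisons are descriptions with exact binomial, Poisson, order-statistic or Newcombe intervals, which cover counting only. The members, the lists and the named places (the strongest, widest and most crowded peaks, the longest stretches without peaks, and the fullest and emptiest windows) were chosen with earlier results of these data known. A gene table of another assembly was not used for positions, and genes, motifs and sequences were not analysed here.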

Additional observations from a re-analysis of the deposited data

How the results depend on the processing

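No paired analysis was possible because the peaks carry no values for single libraries, and leaving out a replicate was not possible either. The lower density of the right arm of V kept its adjusted interval below 1 in all 10 alternatives (ratio 0.453 without IV to 0.532 without II). The density ratio of V to the other chromosomes stayed below 1 in 14 alternatives but did not pass 0.05 in the strongest 25% of the list (0.784, quasi-Poisson p = 0.0533, n = 97 windows) or without the right arm of V (0.871). For the excess of the centre over the arms on V relative to I to IV, the interval excluded 1 in the strongest 25% (1.54) and in no other of its 5 alternatives. For the left arm the adjusted interval excluded 1 without II (0.703) and in no other of its 10, and for the centre in none of its 10. The central share of V was 57.2% in the strongest 25%, 68.3% for the middle 50% and 57.6% for the middle 40%, and its difference from I to IV was 13.3 points in the strongest 25%. The median width of V was 556 bp at 1e-05 or below and 645.5 bp in the strongest 25%. The share of V peaks with a neighbour was 9.40% within 1 kb and 61.9% within 5 kb, and, within 2 kb, 24.2% at 1e-05 or below, 16.2% in the strongest 25% and 20.9% after joining peaks within 500 bp. The median distance was 17.9 kb, 36.6 kb and 10.8 kb in these last 3 settings. There were 13 sparse windows of 41 at 500 kb, and 0 full windows of 10 at 2 Mb and 4 of 20 in the strongest 25%. Fewer peaks or other distances and bounds move these values by construction; the cause of the changed calls was not tested. The alternatives for the 3 parts of V, and the one without its right arm, were chosen after seeing the data.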
